A study of Mus musculus with 30 samples.

Results

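The comparison described here sets 3 arrays of KH2 mouse embryonic stem cells at 16 h of a retinoic acid time course against 3 arrays at 12 h (replicates A to C), 6 of the 30 arrays of the series. KH2 is 1 mouse embryonic stem cell line, built for inducible transgenes and grown here on feeder fibroblasts. The 16 h and 12 h arrays carry the treatment label retinoic acid (RA), and the 8 h arrays, used below beside them, the label baseline. RA was given at 0.3 uM in medium with serum, and a 30 minute replating on gelatin preceded RNA extraction. The labels give 2 accounts of that step, with RNA from the adhered cells or from the medium drawn off, and name shorter treatments than the arrays cover. They do not say that replicates were separate cultures, so the p-values cover the spread of these samples alone, which may be technical. The other 12 h arrays, D to F, whose hybridisation controls lie apart, entered no test of 16 h against 12 h A to C, but only the choice of probe sets, the floor given below and an alternative fit of all 30 arrays.

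Retinoic acid is the active form of vitamin A. It enters the nucleus on carrier proteins and binds heterodimers of RA receptors and retinoid X receptors that sit on paired short motifs in DNA. In embryonic stem cells it switches on its own receptor and clearing enzymes, then the Hox genes, whose proteins mark position along the head-to-tail axis, while genes of the pluripotent state decline. Fibroblast growth factor (FGF) signalling through the kinase ERK, Myc and the genes of ribosome assembly are features of growing stem cells. Their lists, like all others below, were chosen with earlier results of these data known.

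Promoter windows of 5 genes are shown because they hold a motif named in the results. They come from RefSeq on build GRCm38.p6 and run from 250 bases before the gene's start to 50 after it, 5′ to 3′ on the gene's strand. Rarb (chr14:16575427-16575726, minus strand) and Cyp26a1 (chr19:37697558-37697857, plus strand) each hold a DR5, a pair of RA receptor hexamers in direct repeat with 5 bases between them. A hexamer reads A or G, then G, then G or T, then TCA, and both strands were searched. Capitals mark the hexamers, which begin at -53 in Rarb and, on the reverse strand, at -32 in Cyp26a1, counted from the gene start.
Rarb: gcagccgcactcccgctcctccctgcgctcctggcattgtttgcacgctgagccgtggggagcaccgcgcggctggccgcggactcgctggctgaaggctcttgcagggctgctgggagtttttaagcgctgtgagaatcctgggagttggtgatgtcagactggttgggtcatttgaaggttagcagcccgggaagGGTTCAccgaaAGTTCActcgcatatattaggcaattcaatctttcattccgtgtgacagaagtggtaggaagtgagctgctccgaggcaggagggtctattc
Cyp26a1: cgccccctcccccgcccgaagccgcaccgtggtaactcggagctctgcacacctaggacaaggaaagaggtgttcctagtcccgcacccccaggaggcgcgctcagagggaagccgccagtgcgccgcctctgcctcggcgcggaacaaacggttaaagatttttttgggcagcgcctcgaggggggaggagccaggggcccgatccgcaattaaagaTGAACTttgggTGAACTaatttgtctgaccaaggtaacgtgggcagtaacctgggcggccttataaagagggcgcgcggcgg
Zfp36 (chr7:28379179-28379478, minus strand), an immediate early gene, holds a CArG box at -58, the site of serum response factor. Chac1 (chr2:119350992-119351291, plus strand) and Trib3 (chr2:152344011-152344310, minus strand), genes of the stress response, hold TGATGNAA on the reverse strand, a motif of the factor ATF4 with its partners, at -193 and at 15. Capitals mark the motif.
Zfp36: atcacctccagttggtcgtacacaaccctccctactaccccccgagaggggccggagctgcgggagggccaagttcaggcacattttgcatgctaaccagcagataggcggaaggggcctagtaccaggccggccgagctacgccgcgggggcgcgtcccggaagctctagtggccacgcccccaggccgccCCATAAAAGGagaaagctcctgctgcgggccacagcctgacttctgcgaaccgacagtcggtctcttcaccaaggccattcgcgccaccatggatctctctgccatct
Chac1: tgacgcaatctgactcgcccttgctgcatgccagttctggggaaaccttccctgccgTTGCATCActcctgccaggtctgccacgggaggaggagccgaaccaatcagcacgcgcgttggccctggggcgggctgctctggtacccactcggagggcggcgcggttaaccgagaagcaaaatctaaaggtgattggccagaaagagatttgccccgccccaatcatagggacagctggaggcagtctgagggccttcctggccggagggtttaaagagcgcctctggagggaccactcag
Trib3: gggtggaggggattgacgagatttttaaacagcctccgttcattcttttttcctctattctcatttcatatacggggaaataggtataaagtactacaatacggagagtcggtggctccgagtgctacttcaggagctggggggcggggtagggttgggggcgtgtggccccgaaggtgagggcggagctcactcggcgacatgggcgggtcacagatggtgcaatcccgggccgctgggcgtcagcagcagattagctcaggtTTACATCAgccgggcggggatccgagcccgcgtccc
Of 18193 genes measured, 14452 had a window, and 11 of them (0.0761%) held a DR5. Rarb and Cyp26a1 were 2 of the 21 genes of the retinoid list with a window. Of Hox groups 1 to 4, 0 of 7 genes with a window held a DR5. By direction at 16 h, a DR5 was found in 3 of 2192 genes called higher (0.137%), 2 of 1662 called lower (0.12%) and 6 of 10598 not called (0.0566%). A DR2, with 2 bases between the hexamers, was found in 14 genes (0.0969%). The other motifs were chosen after the values were seen. A CArG box stood in 3 of 20 immediate early genes with a window, against 229 of all 14452 genes (1.58%). By direction it stood in 1.51% of genes called higher, 1.99% of those called lower and 1.54% of those not called. TGATGNAA stood in 8 of 28 genes of the stress and amino acid list, against 468 of all genes (3.24%). Of those 8, Chac1, Trib3, Slc1a4 and Aars were called lower, and Asns, Vldlr, Slc7a11 and Gars were not called. By direction TGATGNAA stood in 2.24% of genes called higher, 3.67% of those called lower and 3.38% of those not called. Over all 32851 windows of the table, whose genes were not all on the arrays, the shares were 0.0974% for DR5, 0.268% for DR2, 1.63% for the CArG box and 3.97% for TGATGNAA. A match of letters is not a shown binding site.

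Values are log2 intensities, 1 probe set a gene, and a change is the 16 h mean minus the 12 h mean with its standard error (SE) from limma. By limma's test at a Benjamini-Hochberg adjusted p under 0.05, 2752 genes (15.1%) were called higher at 16 h and 2018 (11.1%) lower, 4770 (26.2%) in all. Most changes were small, since 46 of the higher and 13 of the lower calls reached 1 log2. The groups did not overlap for 4143 genes with 16 h above 12 h (22.8%) and for 3364 with 16 h below (18.5%). The median change over all genes was 0.00437. Higher calls were 57.7% of all calls, and 27.4% (1640 higher and 4346 lower) when each array was centred on the median of the genes tested, which moved the median change to -0.0879. Where the lower group mean was under 4.73, the lowest lower quartile among the 30 arrays, a fold is given as a bound. The number of arrays limits the precision.

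Some technical controls of the 6 arrays lay close together, and others varied between arrays or differed between the groups. The bacterial spike-ins BioDn and BioC, added in fixed amounts, differed by 1.01 to 1.05 log2 at 16 h and 1.00 to 1.07 at 12 h, against 1.34 to 1.63 on the 18 arrays that stand apart, 12 h D to F among them. The 5′ probe set of 18S ribosomal RNA lay at 9.82 to 10.84 at 16 h and 10.08 to 11.12 at 12 h, and the 2 ranges overlap. The 3′ minus 5′ difference of Gapdh was 0.017 to 0.026 at 16 h and -0.002 to 0.01 at 12 h, and the B2 repeat lay at 14.68 to 14.71 and at 14.72 to 14.75, without overlap. The Dap poly-A control lay at 7.05 to 7.54 at 16 h and 7.20 to 7.78 at 12 h. No 2 arrays of a group held the same values. Stem cell markers were high at both times. Pou5f1, the gene of Oct4, averaged 13.34 ± 0.04 at 16 h and 13.39 ± 0.08 at 12 h (SD, n = 3 each), and Dppa5a averaged 14.46 ± 0.06 and 14.48 ± 0.04. The neuronal marker Dcx lay at 5.33 ± 0.13 at 16 h and 5.36 ± 0.16 at 12 h, and the endoderm marker Afp at 5.46 ± 0.13 and 5.63 ± 0.12. Other markers of these cell types lay higher. Of the neuronal panel, Stmn2 averaged 11.75 at 16 h and 11.76 at 12 h, Elavl3 8.76 and 8.71, and Tubb3 8.61 and 8.92. Of the endoderm panel, Gata6 averaged 7.58 and 7.49, Ttr 7.35 and 7.43, and Gata4 6.87 and 6.71. Sox17 averaged 5.92 and 5.89, and Sox7 5.78 and 6.80.

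Most genes of the RA pathway that passed the test were higher at 16 h than at 12 h, and the carrier Crabp2 had the largest rise of all genes. Of 28 measured genes of retinoid signalling and metabolism, 12 (42.9%) were called higher and 3 (10.7%) lower, against 15.1% and 11.1% of all genes. The median change was 0.24. Crabp2, which carries RA from the cytoplasm to its receptors, had 12.34, 12.09 and 12.15 on the 16 h arrays, against 9.73, 10.23 and 10.27 on the 12 h arrays. Every 16 h array stood above every 12 h array by a wide margin. The change was 2.12 ± 0.13 (SE, limma adjusted p = 1.31e-05), or 4.34-fold. Its mean was 9.02 at 8 h, 10.08 at 12 h, 12.19 at 16 h and 12.67 at 24 h. Crabp1, a related carrier, averaged 9.69 ± 0.17 at 16 h and 9.28 ± 0.14 at 12 h (SD, n = 3 each), and Fabp5, a fatty acid carrier that can also bind RA, was higher by 0.43.

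Of the receptors, Rarb, whose DR5 is shown above, had 8.63, 8.58 and 8.54 at 16 h, against 7.82, 7.85 and 7.94 at 12 h, with no overlap. Its change was 0.71 ± 0.10 (SE, limma adjusted p = 0.000487). Rarg went the other way, with 10.44, 10.42 and 10.56 at 16 h and 11.02, 10.81 and 10.81 at 12 h, and fell by 0.41. Rara was not called, with a change of -0.09 ± 0.06 (SE). Rxra was called higher by 0.29, but its other probe sets were not, at 0.12 and -0.19. Rxrg was called lower by 0.19 at a limma adjusted p of 0.0453, and that call was lost in 9 of 17 alternative settings, among them those without 16 h A, 16 h B, 12 h B or 12 h C. The coactivator Ncoa3 was lower by 0.23, a call lost without 16 h C.

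The enzymes that clear RA or its precursor were also higher. Cyp26a1, which oxidises RA, was already near the top of the scale, with 13.46, 13.45 and 13.51 at 16 h, against 13.05, 13.14 and 13.20 at 12 h. All 3 later arrays exceeded the earlier ones, by a mean of 0.34 ± 0.06 (SE, limma adjusted p = 0.00189). Dhrs3, which turns retinaldehyde back to retinol, was higher by 0.31, and Cyp26b1, another RA oxidase, by 0.28. The Cyp26b1 call was lost without 16 h B, 16 h C or 12 h C, and under the centring on the genes tested. The synthesising enzymes were not called. Aldh1a2 averaged 5.96 ± 0.24 at 16 h and 5.90 ± 0.18 at 12 h (SD, n = 3 each), Aldh1a3 differed by 0.19 ± 0.10 (SE), and Aldh1a1 lay below 4.73 in both groups. Rdh10, which makes retinaldehyde, differed by -0.04 ± 0.07 (SE).

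Other RA-responsive genes of the list included Zfp703, a zinc finger corepressor, with 10.96, 11.03 and 10.94 at 16 h, against 9.74, 10.07 and 10.05 at 12 h. The groups stood well apart, at a change of 1.02 ± 0.11 (SE, limma adjusted p = 0.000106). Its 2 other probe sets, at lower levels, were not called. Rbp4, the retinol carrier of blood, was higher by 0.76, Tgm2, a transglutaminase, by 0.61, and Stra8, which readies germ cells for meiosis, by 0.40. Stra6, the retinol uptake receptor, was not called at -0.18 ± 0.10 (SE), and neither were the orphan receptors Nr2f1, Nr2f2 and Nr2f6, nor Rxrb, Nrip1, Zfp503 and the dim Lrat.

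**Figure D1:**
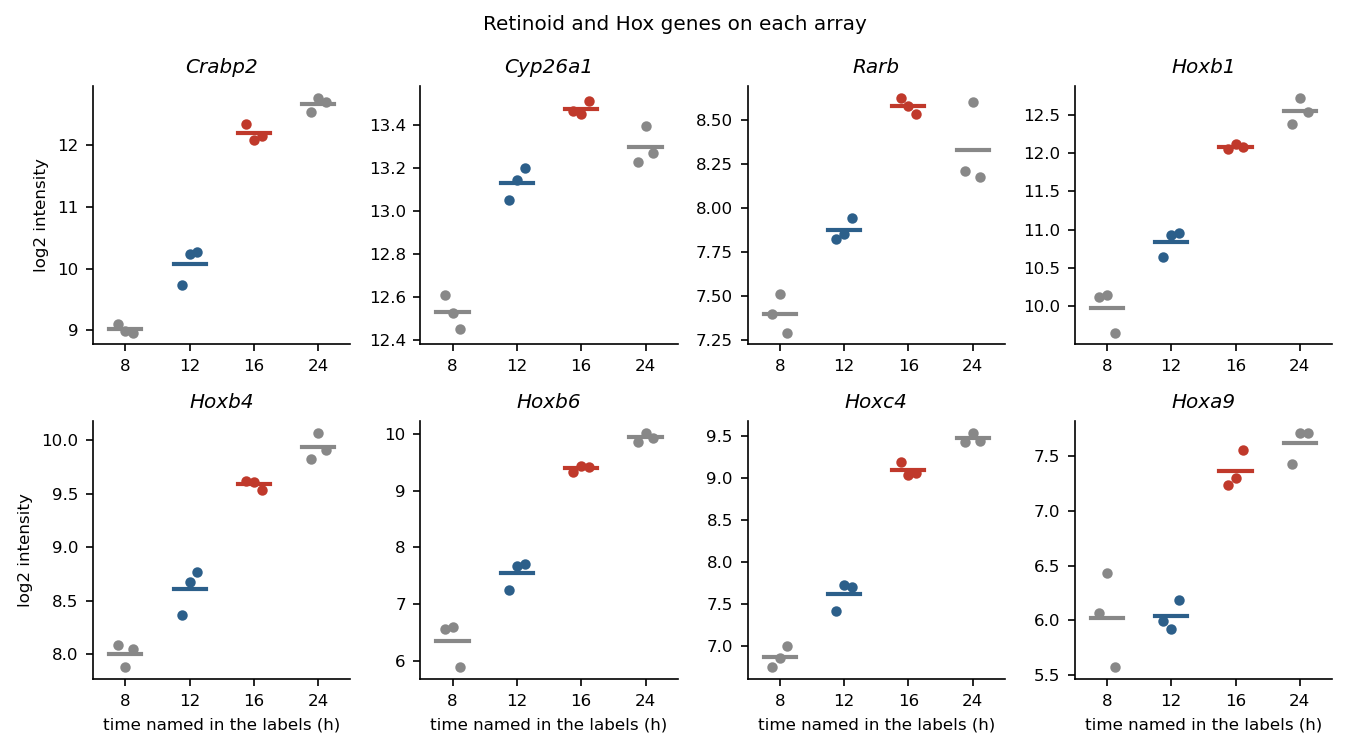
Log2 intensity of 8 retinoid and Hox genes on each array at 8, 12, 16 and 24 h (arrays A to C at 12 h and 24 h), with a bar at each mean. In each panel the 3 arrays at 16 h (red) lie above the 3 at 12 h (blue), as for Crabp2 at 12.09 to 12.34 against 9.73 to 10.27, and the axes differ between panels.

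Hox genes of the anterior paralogue groups formed the most uniform set of rises. In groups 1 to 4, 9 of 10 measured genes were called higher and 0 lower, and the median change was 0.90. In groups 5 to 8, 4 of 9 were called higher and 0 lower (median 0.37), and in groups 9 to 13, 4 of 14 higher and 1 lower (median 0.22). Over all genes, 15.1% were called higher. Across all 17 alternative settings the count of higher calls lay at 8 to 9 in groups 1 to 4, 3 to 5 in groups 5 to 8 and 3 to 5 in groups 9 to 13. Groups 1 to 4 had no call of the opposite direction in any of them. The number of genes tested fell when the dimmest 30% of genes were removed. Then 8 of 8 were called higher in groups 1 to 4, 5 of 7 in groups 5 to 8 and 4 of 6 in groups 9 to 13. Their medians were 0.97, 0.64 and 0.48, and 2902 of all 12735 genes left were called higher. Many genes of groups 9 to 13 were thus too dim for the shares to be compared plainly.

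In the Hoxb cluster, Hoxb1, which specifies a hindbrain segment, had 12.05, 12.11 and 12.08 at 16 h, against 10.65, 10.92 and 10.96 at 12 h. Hoxb6 had 9.33, 9.43 and 9.41 at 16 h, against 7.25, 7.67 and 7.70 at 12 h. In both genes the 16 h arrays agreed closely and cleared all 12 h arrays. The changes were 1.24 ± 0.13 and 1.85 ± 0.17 (SE, limma adjusted p = 0.000101 and 4.78e-05). Hoxb2 was higher by 0.96, Hoxb3 by 1.33, Hoxb4 by 0.98 and Hoxb5 by 1.17. A second probe set of Hoxb3 was also called, at 0.63. Hoxb7 lay at 4.92 to 5.19 at 16 h and 4.82 to 5.18 at 12 h and was not called. Hoxb9 was higher by 0.65 and Hoxb13 by 0.67.

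In the Hoxa cluster, Hoxa2 was higher by 0.48, Hoxa4 by 0.48, Hoxa5 by 0.64 and Hoxa3 by 0.83. The Hoxa2 call was lost when any 1 of 4 arrays was left out (16 h A or C, 12 h A or B), at changes of 0.36 to 0.46. For Hoxa3, 3 other probe sets were not called, at 0.10 to 0.30. Hoxa7 differed by 0.00 ± 0.10 (SE), and Hoxa10 and Hoxa13 were not called. Hoxa9 had 7.24, 7.30 and 7.56 at 16 h, against 6.00, 5.92 and 6.19 at 12 h, a change of 1.33 ± 0.18 (SE, limma adjusted p = 0.000356). Its second probe set differed by -0.06 and was not called, so the probe sets of Hoxa9 disagree. Hoxa11 was the only lower call among the Hox genes measured, at -0.32.

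In the Hoxc and Hoxd clusters 4 genes were called. Hoxc4 had 9.20, 9.03 and 9.06 at 16 h, against 7.42, 7.74 and 7.71 at 12 h, a change of 1.48 ± 0.09 (SE, limma adjusted p = 1.31e-05). Hoxc5 had 6.88, 6.84 and 6.77 at 16 h, against 4.96, 5.18 and 4.62 at 12 h. These 12 h values lie near the lower quartile of the arrays, and all 16 h arrays are above them. The change was 1.91 ± 0.20 (SE, limma adjusted p = 0.000103), and its other probe sets changed less, by 0.61 (called) and 0.23 (not called). Hoxc13 was higher by 0.31. Hoxc6, Hoxc8, Hoxc9 and Hoxc10 were not called. Of the Hoxd genes, Hoxd1 was higher by 0.51, and Hoxd3, Hoxd8, Hoxd9, Hoxd10, Hoxd11, Hoxd12 and Hoxd13 were not called.

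Genes of the TALE homeodomain cofactors, which bind DNA beside Hox proteins, and of the caudal factors, which act upstream of Hox genes, were higher in 6 of 11 measured cases and lower in 0. The share called higher was 54.5%, against 15.1% of all genes. Pknox2 had 8.94, 8.71 and 8.76 at 16 h, against 7.19, 7.17 and 7.54 at 12 h, a change of 1.50 ± 0.15 (SE, limma adjusted p = 7.55e-05). Its other, dimmer probe set differed by -0.02 and was not called. Meis1 was higher by 0.89, and its 2 other probe sets, at lower levels, were not called. Meis2 was higher by 0.66, and its 3 other probe sets were called too, at 0.48, 0.62 and 0.70. Pbx3 was higher by 0.59, Pbx4 by 0.27 and Cdx1 by 0.64, and the Pbx4 call was lost without 16 h A, 16 h B or 12 h A. Cdx1 lay at 10.39, 10.39 and 10.46 at 16 h and at 9.71, 9.77 and 9.84 at 12 h. Cdx2 differed by 0.06 ± 0.10 (SE), and Cdx4 lay below 4.73 in both groups. Meis3, Pbx2 and Pknox1 were not called.

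The largest other rises belonged to no single family. Foxc1, a forkhead factor of mesoderm, had 6.90, 6.77 and 6.75 at 16 h, against 4.93, 5.03 and 5.55 at 12 h, a change of 1.64 ± 0.20 (SE, limma adjusted p = 0.000195). A second probe set agreed in direction, at 1.35. Fibroblast markers, given below, were higher on the same arrays, and their part in the mesoderm genes was not tested. Scara3, a scavenger receptor, was higher by 1.48, Plppr1, a membrane protein of neurons, by 1.41, Itih5, a secreted matrix protein, by 1.32 and Cpeb1, a regulator of mRNA translation, by 1.31. Of 3 other probe sets of Plppr1 1 was called higher. The other probe sets of Itih5, at lower levels, were not called. Zbtb16, the zinc finger factor PLZF, had 6.47, 6.06 and 6.00 at 16 h, against 4.52, 4.07 and 5.29 at 12 h, and was at least 2.39-fold higher (limma adjusted p = 0.00296). Of its 2 other probe sets, 1 was called higher at 0.54 and 1 was not called. Pdzrn3, a ubiquitin ligase, was higher by 1.35 on its brightest probe set, and 0.05 on a dim one that was not called.

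Most naive pluripotency genes fell, while the central factors Pou5f1 and Sox2 were not called. In the naive list 15 of 22 measured genes were called lower and 0 higher, with a median change of -0.38, against 11.1% of all genes called lower. Tcl1, a cofactor of the kinase Akt, had 8.43, 8.44 and 8.38 at 16 h, against 9.34, 9.24 and 9.40 at 12 h, and fell by 0.91. Dppa2, a chromatin factor of early embryos, had 11.47, 11.60 and 11.62 at 16 h, against 12.47, 12.35 and 12.45 at 12 h. The 2 groups are far apart for their spread, at -0.86 ± 0.06 (SE, limma adjusted p = 1.73e-05). Klf4, a Kruppel-like factor of the naive state, fell by 0.70, Dppa4 by 0.60, Tbx3 by 0.54, Klf5 by 0.48 and Zfp42, also named Rex1, by 0.48.

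Other falls in the naive list were those of Dppa3 (0.49), Prdm14 (0.46), Fbxo15 (0.40), Esrrb (0.36), Nr5a2 (0.30), Gdf3 (0.28) and Klf2 (0.24), each called lower. The calls of Prdm14, Esrrb and Klf2 were lost without 12 h A, those of Prdm14 and Klf2 also without 16 h A, and that of Klf2 also without 16 h C or 12 h C. Tfcp2l1, Stat3, Nr0b1, Gbx2, Fgf4, Tdgf1 and Dppa5a were not called. Of 14 measured core genes, 7 were called lower and 1 higher, against 11.1% and 15.1% of all genes, with a median of -0.195. Both lists hold Utf1 and Tdgf1, and Utf1 is counted as a lower call in each. Utf1, a chromatin protein of pluripotent cells, fell by 0.65, L1td1 by 0.65, Dnmt3l by 0.61 and Sall1 by 0.46. Nanog had 12.50, 12.38 and 12.37 at 16 h, against 12.74, 12.63 and 12.56 at 12 h. The groups do not overlap but lie close, at -0.23 ± 0.06 (SE, limma adjusted p = 0.0148). The call was lost when 16 h B, 16 h C or 12 h A was left out and when all 30 arrays were fitted, with changes that stayed below 0. Zfp281 was lower by 0.23 and Trim28 by 0.17, the Zfp281 call being lost without 16 h B, 16 h C or 12 h A. Sox2 differed by -0.14 ± 0.07 (SE), and Sall4, Lin28a and Foxd3 were not called. The single higher call, Lin28b, lay at 3.23 to 3.36 at 16 h and 2.84 to 3.13 at 12 h, below 4.73 throughout, and its call was lost without any 1 of 5 arrays (16 h A, B or C, 12 h A or B).

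Of the genes that follow the naive state in the epiblast, Otx2, a head organiser factor, was lower by 0.79 and Lef1, a Wnt effector, by 0.94. Sox3, a neural factor, was higher by 0.75, with 9.29, 9.13 and 9.23 at 16 h against 8.43, 8.52 and 8.47 at 12 h. A second probe set of Sox3, at a lower level, was not called, at 0.06. In all, 4 of 17 formative genes (23.5%) were called higher and 5 (29.4%) lower, against 15.1% and 11.1% of all genes. DNA methylation and Tet genes gave 6 of 13 lower calls (46.2%) and 1 higher (7.69%). Dnmt3a, a de novo methyltransferase, fell by 0.67 on the brightest probe set, but of its 4 others 2 were called higher, at 0.25 and 0.30. Tet1 fell by 0.61 and Tet2 by 0.40, and 3 other probe sets of Tet1 were not called, at -0.11 to -0.33.

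**Figure D2:**
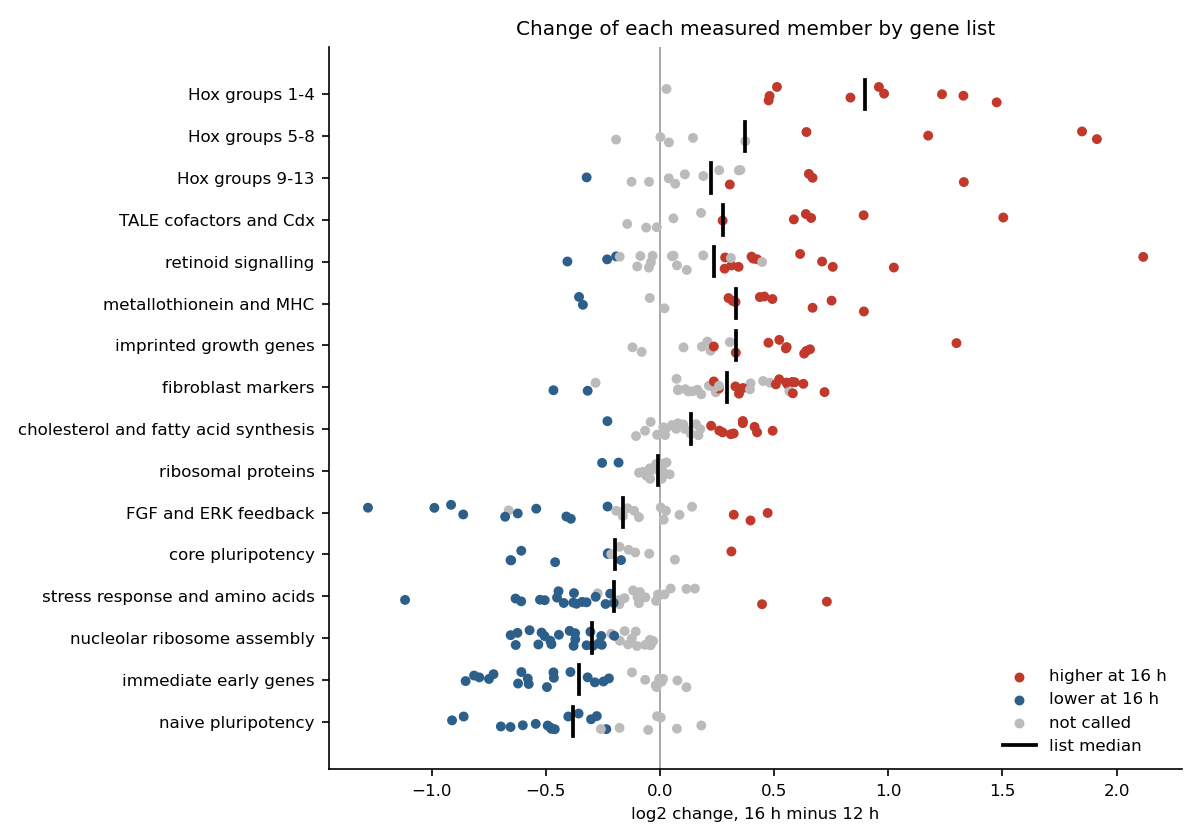
Log2 change (16 h minus 12 h) of each measured member of 16 gene lists, 1 point a gene, in red where called higher, blue where called lower and grey where not called, with a black bar at each list's median. Points of Hox groups 1 to 4 lie to the right (median 0.90), those of the naive pluripotency list to the left (median -0.38), and the ribosomal proteins stay near 0.

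Of 25 measured genes of FGF signalling and its ERK feedback, 10 (40.0%) were called lower and 3 (12.0%) higher, against 11.1% and 15.1% of all genes, with a median of -0.16. The other 12 were not called, Dusp5 among them. Spry4, an inhibitor that ERK switches on to limit the pathway, had 8.37, 8.49 and 8.47 at 16 h, against 9.96, 9.53 and 9.69 at 12 h. Each later array was more than 1 log2 below each earlier one, at -1.28 ± 0.11 (SE, limma adjusted p = 4.51e-05). All 3 of its other probe sets were called lower, at -0.87, -1.18 and -1.29. Etv4, an Ets factor downstream of FGF, had 9.99, 10.10 and 10.14 at 16 h, against 11.15, 10.98 and 11.07 at 12 h, and fell by 0.99. Etv5, its relative, fell by 0.68, Spry2 by 0.86, Fgfbp1, a carrier of FGFs, by 0.92, and the phosphatase gene Dusp4 by 0.54. The ligand Fgf4 differed by 0.00 ± 0.14 (SE), and the receptor Fgfr1 was higher by 0.32.

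Immediate early genes, which respond to growth signals and handling within minutes, fell as a set. Of 26 measured, 17 (65.4%) were called lower and 0 higher (median -0.355), against 11.1% and 15.1% of all genes. Across the alternative settings 13 to 18 were called lower. Jun had 9.02, 8.91 and 8.80 at 16 h, against 9.89, 9.73 and 9.55 at 12 h. Atf3 had 8.37, 8.15 and 7.93 at 16 h, against 9.07, 8.87 and 9.06 at 12 h. Neither gene showed overlap, with falls of 0.81 and 0.85 (limma adjusted p = 0.000484 and 0.000889). Fosb fell by 0.79 and Egr2, also a hindbrain factor, by 0.75. The call of Fosb was lost when 16 h C or 12 h A was left out, at changes that reached -0.64. Zfp36, an mRNA decay factor whose CArG box is shown above, had 9.27, 9.26 and 9.13 at 16 h, against 10.00, 9.69 and 9.68 at 12 h.

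Array medians of this list were 9.13, 9.14 and 9.06 at 16 h, against 9.78, 9.59 and 9.41 at 12 h. They were 9.85 to 10.05 at 8 h and 9.97 to 10.17 at 24 h. The 16 h mean was thus the lowest of the 4 times for 18 of 26 members, as it was for 4790 of all 18193 genes. Fos, for example, averaged 12.64 at 8 h, 12.60 at 12 h, 11.99 at 16 h and 13.16 at 24 h.

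Myc and Mycn fell together. Myc had 7.21, 7.37 and 7.68 at 16 h, against 8.64, 8.36 and 8.53 at 12 h, and fell by 1.09 ± 0.13 (SE, limma adjusted p = 0.000204). Mycn had 9.47, 9.42 and 9.16 at 16 h, against 10.53, 10.16 and 10.17 at 12 h, a change of -0.94 ± 0.11 (SE, limma adjusted p = 0.000195). For Mycn, 2 dimmer probe sets were not called. Max, the partner of both proteins, was lower by 0.32, and Mycl was not called at 0.27 ± 0.09 (SE). Of 11 measured genes of the Myc family and its partners, 3 (27.3%) were called lower, 2 (18.2%) higher and 6 were not called. Over all genes 11.1% were called lower and 15.1% higher. The median of the list was 0.04.

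Nucleolar genes of ribosome assembly, a class that Myc is known to activate, were lower in 21 cases. Of 32 measured, 21 (65.6%) were called lower and 0 higher (median -0.30), against 11.1% and 15.1% of all genes. Across the alternative settings 21 to 30 were lower. Nop2, an RNA methyltransferase of the large subunit, had 10.32, 10.39 and 10.41 at 16 h, against 11.05, 10.84 and 10.94 at 12 h. The groups were clearly apart, at -0.57 ± 0.06 (SE, limma adjusted p = 0.000148). Nop16 fell by 0.65, Rrp12 by 0.63 and Noc3l by 0.62. The ribosomal proteins themselves were nearly flat, with 2 of 24 called lower, 0 higher and a median of -0.01.

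Many genes of the stress response in which ATF4 acts were also lower, while Ddit3 was higher. Of 35 measured genes of the integrated stress response and amino acid supply, 17 (48.6%) were called lower and 2 (5.71%) higher (median -0.20). Over all genes 11.1% were called lower and 15.1% higher. Chac1, which degrades glutathione and whose promoter is shown above, had 9.58, 9.48 and 9.55 at 16 h, against 10.83, 10.29 and 10.84 at 12 h. It fell by 1.12 ± 0.14 (SE, limma adjusted p = 0.00028), and its means were 11.88 at 8 h, 10.65 at 12 h, 9.54 at 16 h and 12.06 at 24 h. Trib3, a pseudokinase of the same response, fell by 0.61, and the arginine transporter Slc7a3 by 0.63. Ddit3, the stress factor CHOP, went up, with 10.51, 10.43 and 10.54 at 16 h against 9.52, 9.87 and 9.90 at 12 h, a change of 0.73 ± 0.10 (SE, limma adjusted p = 0.000491). A second probe set of Ddit3, at a lower level, was not called. Asns, the asparagine synthetase, differed by -0.01 ± 0.06 (SE).

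Of 25 heat shock and folding genes, 8 (32.0%) were called lower and 5 (20.0%) higher, against 11.1% and 15.1% of all genes. Hsph1 fell by 0.59, Hspa1b by 0.43, Herpud1 by 0.43 and Hspb1 by 0.42. Targets of p53 and inhibitors of the cell cycle gave 10 of 25 lower calls (40.0%, against 11.1% of all genes) and 4 higher, with a median of -0.10. Gadd45a, a DNA damage response gene, had 10.02, 10.12 and 10.19 at 16 h, against 10.78, 10.73 and 10.84 at 12 h, and fell by 0.67. Phlda3 fell by 0.51 and Perp by 0.49, and Cdkn1a, the p21 gene, was not called at -0.10 ± 0.06 (SE).

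**Figure D3:**
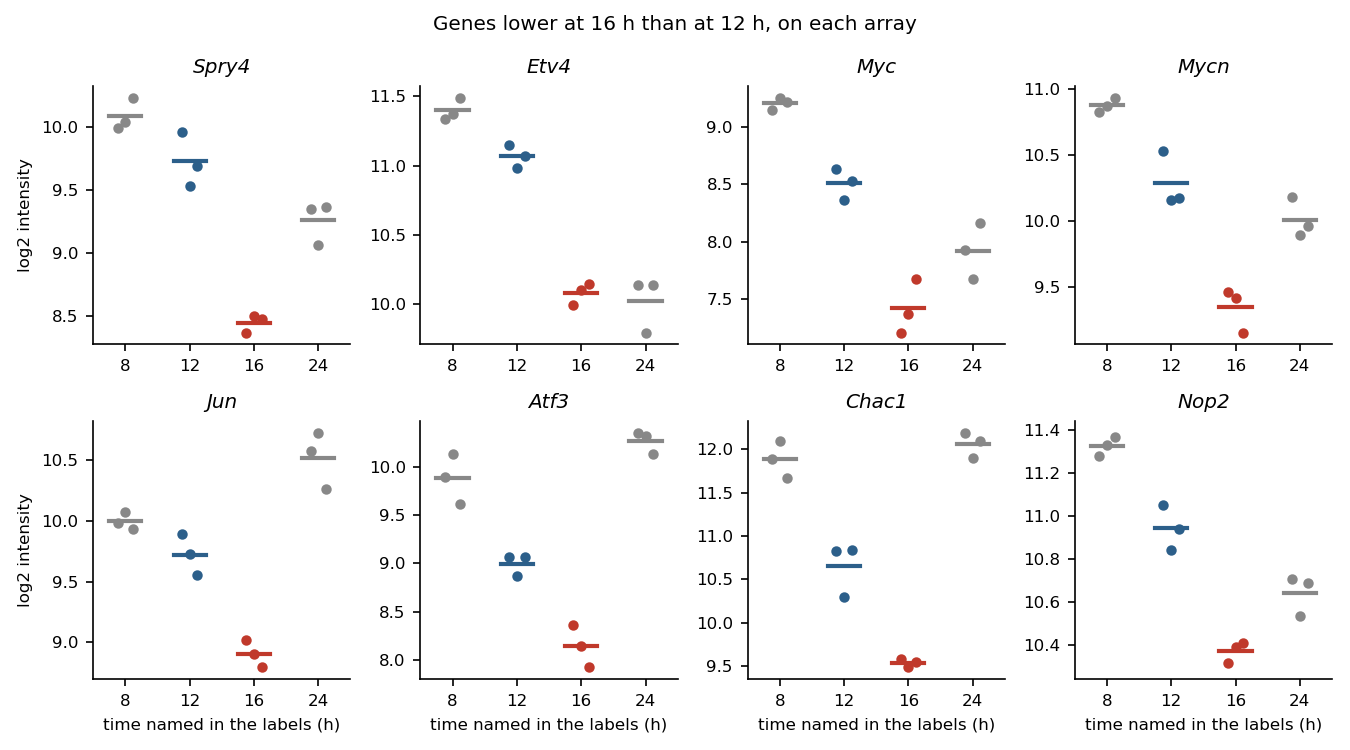
Log2 intensity on each array at 8, 12, 16 and 24 h (arrays A to C at 12 h and 24 h) of 8 genes that fell, with a bar at each mean and a separate axis in each panel. In each panel the 16 h arrays (red) lie below the 12 h arrays (blue), and for Jun, Atf3 and Chac1 the 24 h mean (10.52, 10.27 and 12.06) stands above the other 3 times.

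Several other strong falls belonged to signalling or epithelial genes. Inhbb, a subunit of activin B, had 9.80, 9.86 and 9.74 at 16 h, against 11.01, 10.88 and 11.07 at 12 h, and fell by 1.19, with a second probe set lower by 0.38. Notch4, a receptor of the Notch family, fell by 1.14, with 1 of 2 other probe sets called lower. Sfn, the epithelial 14-3-3 protein, fell by 1.05, Anxa8, an annexin, by 1.16, Krtdap, a keratinocyte protein, by 1.38, and Arid5b, a DNA-binding factor, by 1.05. Serpinb2, a protease inhibitor, had 4.23, 3.89 and 4.42 at 16 h, against 6.22, 5.31 and 5.25 at 12 h. It was at least 1.82-fold lower, and the call (limma adjusted p = 0.000879) was lost when all 30 arrays were fitted. Sox7, an endoderm and endothelial factor, fell by 1.02, and a second probe set was not called (0.02). Enox1, Aoah and 4833407H14Rik also lay among the 15 largest falls, at -1.05, -0.99 and -1.02. The other probe set of Enox1 (-0.07) and those of Aoah (-0.06 and 0.11), at lower levels, were not called, and with the mean of probe sets the changes were -0.56 and -0.32. Of 4 other probe sets of Arid5b 1 was called lower, at -0.59.

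Components of the developmental pathways were called in both directions. Of all genes 15.1% were called higher and 11.1% lower, and several of these lists lay near those shares. Of 20 Notch genes, 8 (40.0%) were called higher and 3 (15.0%) lower, and under the centring on the genes tested 5 higher and 4 lower. The ligand Dll1 was higher by 0.60, the receptor Notch3 by 0.52 and the target Hey1 by 0.41. Of 13 hedgehog genes 4 (30.8%) were higher and 0 lower (4 and 2 after the centring). The receptor Ptch1 had 13.01, 13.11 and 13.08 at 16 h against 12.62, 12.66 and 12.69 at 12 h. Its coreceptor Gas1 was higher by 0.75 and the transducer Smo by 0.37. Other probe sets of Ptch1, at 0.23 and 0.10, were not called. Hhip, of the same list, was not called at -0.37 on its brightest probe set. Its other probe sets lay at -0.94 and -0.60, both called lower, and at -0.56, not called. Of 33 Wnt genes 7 (21.2%) were higher and 4 (12.1%) lower (6 and 9 after the centring). The receptor Fzd2 was higher by 0.92 and the inhibitor Sfrp2 by 0.90.

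Of 24 genes of the BMP pathway 4 (16.7%) were called higher and 3 (12.5%) lower, near the 15.1% and 11.1% of all genes. After the centring 2 were higher and 6 lower. The ligand Bmp4 had 8.87, 8.90 and 9.09 at 16 h, against 10.05, 9.64 and 9.96 at 12 h, and fell by 0.93. Its usual targets did not move as 1 group, since Id1 and Id3 were lower by 0.39 each and Id2 was higher by 0.78. Of 21 nodal and activin genes 3 were higher and 4 lower, with the inhibitor Smad7 lower by 0.33 and the corepressor Ski higher by 0.41. Guidance genes of axons gave 9 higher (25.7%) and 4 lower (11.4%) calls of 35 (5 and 8 after the centring). The semaphorin receptor Nrp2 fell by 0.97 and Ntn1, a netrin, by 0.55, while Plxna2 was higher by 0.78 and Efnb1, an ephrin, by 0.59.

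Among the lineage lists, 42.1% of germ cell genes were called higher, against 15.1% of all genes. The share was 8.7% for trophoblast and surface epithelium (2 of 23) and 0.0% for the 2-cell-like state (0 of 7). Counts so small cannot show that these lists differ from all genes. Near the share of all genes lay hindbrain and neural plate (16.0%), streak and mesoderm (16.7%), endoderm factors (13.3%) and extraembryonic endoderm products (16.7%). Proneural and neuronal genes had 20.0%. Of 25 hindbrain and neural plate genes, 4 were called higher and 2 lower, and of 30 proneural and neuronal genes 6 higher and 4 lower, with 2 and 4, and 5 and 6, after the centring. Fgfbp3 was higher by 1.24, with 7.81, 7.72 and 7.69 at 16 h against 6.28, 6.65 and 6.58 at 12 h. Sox1, an early neural factor, had 6.54, 6.48 and 6.42 at 16 h, against 6.05, 5.79 and 6.01 at 12 h, and did not pass (0.53 ± 0.20 SE, limma adjusted p = 0.0655). Ebf1 was higher by 0.76 and Gap43, a growth cone protein, by 0.72, while Neurod1 was lower by 0.55 and Tubb3 by 0.31. Of 30 streak and mesoderm genes 5 were higher and 3 lower, with Foxc2 higher by 0.67 and Tcf15 lower by 0.59, on arrays where 14 of 34 fibroblast markers were higher. Of 15 endoderm factors 2 were higher and 3 lower, with Eomes lower by 0.48 and Prdm1 by 0.42.

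Of 24 products of extraembryonic endoderm 4 were higher and 2 lower, of 23 trophoblast and surface epithelium genes 2 and 2, and of 7 genes of the 2-cell-like state 0 and 1. Grhl3, a surface epithelium factor, fell by 0.72 and Lama1, a laminin chain, by 0.44. Of 19 germ cell genes 8 (42.1%) were higher and 4 (21.1%) lower, against 15.1% and 11.1% of all genes. Rec8, a meiotic cohesin, had 10.32, 10.32 and 10.29 at 16 h, against 9.54, 9.62 and 9.63 at 12 h, a change of 0.71. Smc1b, another meiotic cohesin, was higher by 0.69 and Mael by 0.50, while Dazl, an RNA-binding protein of germ cells, fell by 0.57.

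Markers of fibroblasts, the cell type of the feeder layer, were higher at 16 h in 14 cases, and unevenly so among its arrays. Of 34 measured markers 14 (41.2%) were called higher and 2 (5.88%) lower, against 15.1% and 11.1% of all genes, with a median of 0.29. Medians of the list were 8.33, 8.48 and 8.64 on 16 h arrays A, B and C, against 8.20, 8.19 and 8.22 at 12 h. The summed linear level of the list was 20128 to 23896 at 16 h and 18998 to 19243 at 12 h. Of the 8 defining markers, Col1a2, Col3a1, Thy1 and Prrx1 were called higher and Col1a1, Lum, Dcn and Postn were not, and none lay below 4.73. Col1a2, a collagen chain, had 10.10, 10.34 and 10.78 at 16 h, against 9.84, 9.78 and 9.92 at 12 h. Thy1 was higher by 0.63, and the fibroblast gene S100a4 by 0.72, a call lost without 16 h C or 12 h A. Array 16 h A lay nearest to the 12 h arrays and 16 h C farthest from them. Without 16 h A 18 markers were called higher, without 16 h C 5, without 16 h B 7 and without 12 h A 6. The fit of all 30 arrays called 2. In such mixed samples, more cells of a type and more RNA in each cannot be told apart.

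**Figure D4:**
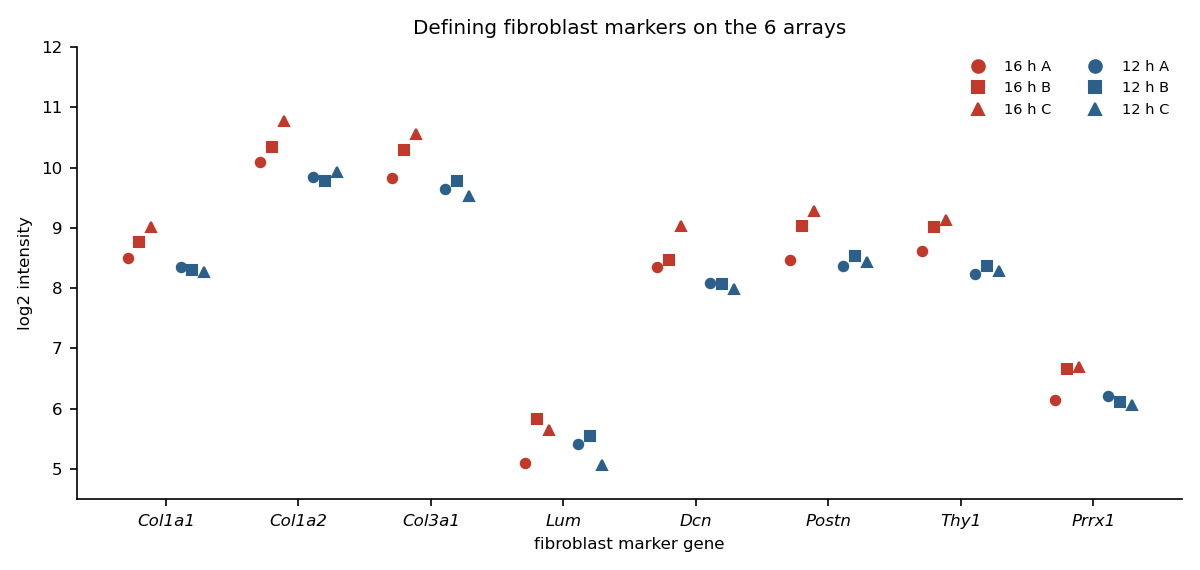
Log2 intensity of the 8 defining fibroblast markers on the 16 h arrays (red, left) and the 12 h arrays (blue, right), with a circle for replicate A, a square for B and a triangle for C. The 16 h arrays spread more than the 12 h arrays, as for Col1a2 at 10.10 to 10.78 against 9.78 to 9.92.

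Of 17 measured imprinted growth genes 10 (58.8%) were called higher and 0 lower, against 15.1% and 11.1% of all genes (median 0.33). Array medians of the list were 9.49, 9.45 and 9.62 at 16 h, against 8.71, 8.90 and 9.03 at 12 h. Nnat, a neuronal membrane protein, had 9.40, 9.45 and 9.44 at 16 h, against 7.96, 8.22 and 8.21 at 12 h. It was higher by 1.30 ± 0.08 (SE, limma adjusted p = 1.31e-05), with closely agreeing 16 h arrays. Grb10, an insulin receptor adaptor, was higher by 0.66, Cdkn1c, a cell cycle inhibitor, by 0.63, Peg3 by 0.55 and Igf2, a growth factor, by 0.33. Dlk1 was higher by 0.64, but a dim second probe set differed by -0.13. Fibroblast markers were higher on the same arrays, as given above, and their part in this result was not tested.

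Genes of antigen presentation were higher, and of the metallothioneins Mt1 and Mt2 were lower and Mt3 higher. Of the 13 genes measured in these groups 9 (69.2%) were called higher and 2 (15.4%) lower, against 15.1% and 11.1% of all genes. H2-K1, a class I heavy chain, had 12.10, 12.17 and 12.12 at 16 h, against 10.99, 11.38 and 11.34 at 12 h, a change of 0.89 ± 0.09 (SE, limma adjusted p = 9.21e-05). H2-D1 was higher by 0.75, its light chain B2m by 0.46, and the immunoproteasome subunits Psmb8 and Psmb9 by 0.67 and 0.49. The probe sets used for H2-K1 and H2-D1 are of a type that can match several class I genes, so these values cannot separate them with certainty. Of H2-D1 probe sets not of that type, 1 was called higher by 0.37 and 1, at a lower level, was not called, at -0.27. Mt1 and Mt2, which bind metal ions, fell by 0.35 and 0.34, and Mt3 was higher by 0.33. The higher fibroblast markers on these arrays hold here too, and their part was not tested.

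Smooth muscle and cytoskeletal genes gave 4 higher and 1 lower call of 16, and cadherin and transition genes 2 and 2 of 19. Fibroblasts express many of these genes, their markers were higher on the same arrays, and that part was not tested. Cnn1, a calponin, was higher by 0.44 and Zeb1, a repressor of epithelial genes, lower by 0.41. Genes of the cell cycle had list medians near 0, at 0.07 for mitosis, 0.01 for replication and -0.07 for cyclins and kinases. Of 25 mitosis genes 7 (28.0%) were called higher and 0 lower, against 15.1% and 11.1% of all genes. Their median turned to -0.03 with 2 higher and 3 lower calls under the centring on the genes tested. Nusap1, a spindle protein, was higher by 0.30 and Mki67, the Ki-67 gene, by 0.23. Of 25 replication genes 5 (20.0%) were higher and 3 (12.0%) lower, and of 15 cyclin and kinase genes 2 (13.3%) and 4 (26.7%). Ccnd2, a D-type cyclin, was higher by 0.55 and Ccne2 lower by 0.34.

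Of 27 genes of sterol and fatty acid synthesis 10 (37.0%) were called higher and 1 (3.7%) lower, against 15.1% and 11.1% of all genes. The median was 0.14, and 0.04 after the centring. Scd1, a fatty acid desaturase, was higher by 0.49, Dhcr7, an enzyme of cholesterol synthesis, by 0.43, and Srebf2, the factor that drives the pathway, by 0.36. A second probe set of Scd1 was not called, at 0.13. Of 30 genes of glycolysis and hypoxia 7 (23.3%) were higher and 4 (13.3%) lower. The growth factor Vegfa was lower by 0.54. Aldoc, an aldolase, was higher by 0.41, a call lost with all 30 arrays and on its other, dim probe set. Oxidative phosphorylation gave 2 higher and 2 lower of 27 (7.41% each). Proteasome subunits gave 7 lower (25.9%, against 11.1% of all genes) and 0 higher of 27, with Psmc4 lower by 0.50. Polycomb and trithorax genes gave 6 higher and 4 lower of 27 (22.2% and 14.8%, against 15.1% and 11.1% of all genes), with Jarid2 lower by 0.52 and Ezh1 higher by 0.35. Of 11 housekeeping genes 2 (18.2%) were higher and 1 (9.09%) lower.

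A further contrast asked where the step from 12 h to 16 h differed from the equal step from 8 h to 12 h, by subtracting the second from the first. Both steps use the 12 h arrays, so they are not independent. By limma, 83 genes (0.456%) were called above 0 and 166 (0.912%) below. Without 12 h C only 8 and 2 were called. Crabp2 had a second difference of 1.06 ± 0.22 (SE, limma adjusted p = 0.043), with steps of 1.06 from 8 h to 12 h and 2.12 from 12 h to 16 h. Hoxc5, with a fitted value of 1.68 from means near the floor at 8 h and 12 h, and Crabp2 lost the call in most of the 20 settings run. Cyp46a1, an enzyme that clears brain cholesterol, had 7.44, 7.21 and 7.50 at 16 h, against 6.64, 6.27 and 6.23 at 12 h, and a mean of 6.72 at 8 h. Its second difference of 1.35 was called in 19 of 20 settings, all but the one without 12 h C. Wnt8a, a Wnt ligand of the primitive streak, averaged 6.45 at 8 h, 6.80 at 12 h and 6.07 at 16 h, with a second difference of -1.09. Egln3, a prolyl hydroxylase of the hypoxia response, averaged 11.50 at 8 h, 12.08 at 12 h and 11.65 at 16 h, with one of -1.01.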

How the data were processed

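RNA from 30 samples of KH2 cells was measured on Affymetrix arrays, 1 array a sample. The deposited values are log2 intensities of 45101 probe sets that the authors had already normalized. The method is not given in the sources used here, beyond limma 3.8.3 per the submitters' processing notes. After removal of 64 control probe sets, 34945 had 1 gene symbol, 932 several and 9160 none. Each of 18193 genes was given by its probe set of highest mean over all arrays. For 9010 genes there was more than 1.

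Changes were tested with limma 3.58.1 (R 4.3.3) on the 12 arrays at 8 h, 12 h A to C, 16 h and 24 h A to C, without a block, with 8 residual degrees of freedom. P-values are two-sided with Benjamini-Hochberg adjustment over all genes. The 12 h D to F arrays entered only the choice of probe sets, the floor of 4.73 and the fit of all 30 arrays. The members and the 45 gene lists were chosen with earlier results of these data known. Genes were named from the 15 largest calls each way without overlap, up to 4 of the largest changes of each list, all measured members of the retinoid, Hox, TALE and pluripotency lists, and the 5 largest second differences each way. Asns, Cdkn1a, Dusp4, Etv5, Fgfr1, Fos, Igf2, Mt1, Mt2, Mt3, Peg3 and Zfp36 were chosen after their values were seen. A gene listed in error as imprinted, Grb7, was removed. Alternatives were the arrays compared alone, all 30 arrays, a replicate block, other centring and quantile normalization, dim genes removed, other probe set rules, another prior, array weights, and each array left out. The scripts were tested on simulated data. Motifs were searched with Python 3.11.15.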

Additional observations from a re-analysis of the deposited data

Results flagged for a closer look

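For 10 genes the step from 12 h to 16 h differed from the step from 8 h to 12 h by limma's test of that difference, chosen by size in each direction. Values above 0 were 1.68 for Hoxc5, 1.35 for Cyp46a1, 1.13 for Lonrf2 and 1.06 for Crabp2. Values below 0 were -1.19 for Mab21l3, -1.09 for Wnt8a, -1.03 for Aoc3, -1.02 for Mef2b and -1.01 for Egln3. Mab21l4 averaged 4.52 at 8 h, 4.13 at 12 h and 4.86 at 16 h, with the 8 h and 12 h means under the floor of 4.73. Its fitted value of 1.13 is therefore no bound and is not ranked here, and its 16 h step allows only at least 1.09-fold. Hoxc5 averaged 4.68 at 8 h, also under that floor. Lonrf2 was called in 11 of 19 settings, Mab21l4 in 10 of 19, Aoc3 in 13 of 20, Hoxc5 in 7 of 20 and Crabp2 in 9 of 20. Mab21l3 and Wnt8a were called in 18 of 20 and Mef2b in 17 of 19, each lost without 12 h A or without 12 h C. Egln3 was lost with all 30 arrays, and Cyp46a1 without 12 h C.

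Of 9160 probe sets with no gene symbol, which the comparison by gene did not use, 754 (8.23%) were called, 266 higher and 488 lower. Of all 45037 probe sets tested, 7357 (16.3%) were called. Among the called unnamed probe sets with both means above 4.73, the largest change was -1.43, at 6.10 at 16 h and 7.53 at 12 h. Close in size were 1.30, at 6.35 and 5.05, and -1.28, at 9.97 and 11.25.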

How the results depend on the processing

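Calls at 16 h against 12 h stayed within 1.5 times of the 2752 higher and 2018 lower in every setting but the centring on the genes tested, chosen after seeing the data, with 1640 and 4346. With an array left out there were 2042 to 2465 higher and 1448 to 1727 lower calls. Replicates with the same letter did not deviate together (r = 0.0534, 0.0284 and 0.0131 for A, B and C), and the replicate block gave 2550 higher and 1816 lower calls. Of 212 named genes called, 153 were called in every setting run and 59 were lost in at least 1. Dlk1 reversed, to -0.13 (limma adjusted p = 0.607), without probe sets ending in _s_at, _x_at or _a_at, which leaves its other probe set. Calls of Pdzrn3, Rxrg, Hoxa3, Meis1, Gpm6a, Tpm2, Cenpa, Aldoc and Ezh1 were lost in that setting. With all 30 arrays Serpinb2, Egln3, Rxrg, Cyp26b1, Hoxc13, Klf2, Esrrb, Gdf3, Nanog, Thbd, Esx1, Dazl, S100a4, Thy1, Islr, Lmod1, Ankrd37, Aldoc, Rpl14, Sdhd and Pcgf1 were lost. With the mean of probe sets Rxra, Pbx4, Nr5a2, Ntn1, Tgfbr1, Smo, Pdgfra, Lrp2, Zeb1, Esrp2, Rbl1, Rrm1, Cenpa, Ttk, Rps6, Sdhd, Dnmt3a, Tet1 and Psmb8 were lost. Of 45 list medians, 26 moved in some setting. The second difference depended on the setting most, with 83 calls above 0 and 166 below. These were 62 and 97 with all 30 arrays, 31 and 51 with the replicate block, 184 and 390 without dim genes, 50 and 128 with the mean of probe sets, 49 and 105 without the probe set types named, 245 and 562 with a trended robust prior, and 134 and 280 with array weights. With an array left out they were 8 to 73 and 2 to 132. The cause was not tested. Where the lower group mean is under 4.73, only a bound holds.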
